A study of Mus musculus with 6 samples.

Results

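The desmosome core genes and Perp were taken as 10 named genes, Dsg2, Dsg3, Dsc2, Dsc3, Dsp, Jup, Pkp1, Pkp2, Pkp3 and Perp, out of 47360 gene symbols measured. They were chosen by name, as components of the junction, with earlier results of these data known. All 10 reached an FPKM of at least 1 in at least 1 library and were tested. Levels are given as FPKM, a count of sequenced fragments scaled to transcript length and library depth, so different genes can be set side by side.

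The libraries came from dental epithelial organoids, grown in Matrigel from epithelial cells of the apical incisor of wild-type, 9-week-old female C57BL/6J mice and sequenced after 14 days. Every medium held Wnt3a- and R-spondin1-conditioned media, EGF at 100 µg/ml, N-acetylcysteine and the ROCK inhibitor Y27632, and all 4 media analysed here also held Noggin, a BMP antagonist, at 200 µg/ml (+N). The other 3 added the Notch pathway inhibitor dibenzazepine, DBZ, at 10 µM by the labels (+ND), FGF10 at 100 µg/ml (+NF), or both (+NFD). Each medium was represented by 1 library, and how many mice or cultures went into a library was not stated. The +NJ and +NFJ media, which contain Jagged1, were not analysed here. Where 4 values follow each other, they stand for +N, +ND, +NF and +NFD in that order.

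Desmosomes are the rivet-like junctions that tie the keratin filaments of neighbouring epithelial cells together. Their cadherins, the desmogleins and desmocollins, span the gap between cells, the armadillo proteins plakoglobin (Jup) and the plakophilins bind the cadherin tails, and the plakin desmoplakin (Dsp) links the plaque to keratin. In stratified epithelia the cadherin isoforms are layered. Dsg3 and Dsc3 are weighted to the basal layers and Dsg1 and Dsc1 to the suprabasal layers, whereas Dsg2, Dsc2 and Pkp2 also serve simple epithelia and the heart. Perp is a tetraspan membrane protein of desmosomes and a target of p63 and p53.

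The libraries held about 21700000 (+ND) to 28800000 (+NFD) fragments, as estimated from the smallest steps between FPKM values. For the members other than Pkp2, about 4489 to 54860 fragments stood behind each value, which gives a counting SD of at most 1.49%. Counting error leaves out the variation between cultures, which 1 library per medium cannot show. The labelled epithelium was checked by its markers, with Krt5 at 4984 to 6582 FPKM and Krt14 at 5530 to 12652 FPKM. The 6 endothelial markers summed to at most 0.507 FPKM in any library. Fibroblast markers summed to 272, 251, 171 and 657 FPKM, and macrophage markers to 629, 479, 454 and 369 FPKM. Of 10 fibroblast markers none was called for DBZ (3.8% of all genes) or FGF10 (0.866%). Of the 10, 5 were higher and 0 lower in both DBZ pairs (38.3% and 23% of all genes). Their median DBZ effect was 1.03, against 0.08 over all genes. Their sum was lower in +ND than in +N, and only +NFD stood above +N. Thy1, counted among the higher, reached an FPKM of 1 only with DBZ (0.0769, 1.04, 0.325 and 11.1 FPKM). Lyz2 alone supplied 528, 408, 373 and 288 FPKM of the macrophage sum. Of the 8 macrophage markers 3 were higher and 3 lower in both DBZ pairs (38.3% and 23% of all genes). For FGF10, 0 were higher and 4 lower in both pairs (40.5% and 14.7%). Ptprc, counted as higher for DBZ and lower for FGF10, was at 0.515, 1.01, 0.383 and 0.612 FPKM. It reached an FPKM of 1 only in +ND, so 1 pair of each factor lay below that level, unlike the background genes. Of these markers Aif1, at 48.7, 10.9, 42.7 and 22.4 FPKM, fell with DBZ (limma adjusted p = 0.0414), as did Tnnt2 of the muscle list, at 7.47, 2.56, 3.42 and 1.08 FPKM (limma adjusted p = 0.0467). Tnnt2 was the only 1 of 5 muscle markers to reach an FPKM of 1, and the whole list summed to 7.49 FPKM in +N. The part of all these markers in the results below was not tested, and in bulk RNA fewer cells of a type and less RNA per cell cannot be told apart.

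The members lie on 7 chromosomes of GRCm38. The cadherins form 1 cluster on chromosome 18, from the start of Dsc3 at 19960930 to the end of Dsg2 at 20604521, with the suprabasal Dsc1, Dsg1a, Dsg1b, Dsg1c and Dsg4 between them. Dsp lies at chr13:38151328-38198577, Jup at chr11:100368958-100397763, Pkp1 at chr1:135871395-135919207, Pkp2 at chr16:16213318-16272712, Pkp3 at chr7:141078218-141090510 and Perp at chr10:18845071-18857073. Exons of Dsg2 and Dsp overlap opposite-strand genes (Gm16090 and Gm10129), and the strand setting of the authors' counting was not stated. Reads from those partners cannot be told apart.

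The 250 bases upstream of the start were available from RefSeq (GRCm38.p6) for 2 of the 10 members, Jup and Dsp, and are shown for both. Capitals mark GGGCGG, the GC box, and TGGGAA, the core of the site bound by the Notch effector RBPJ, on either strand. The Jup sequence is chr11:100397791-100398040 on the minus strand and the Dsp sequence chr13:38151044-38151293 on the plus strand.

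Jup: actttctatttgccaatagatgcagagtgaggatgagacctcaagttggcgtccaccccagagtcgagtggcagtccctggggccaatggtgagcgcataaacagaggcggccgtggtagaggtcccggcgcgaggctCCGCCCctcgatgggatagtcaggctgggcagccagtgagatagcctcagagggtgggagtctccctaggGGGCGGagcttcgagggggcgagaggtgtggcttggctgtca

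Dsp: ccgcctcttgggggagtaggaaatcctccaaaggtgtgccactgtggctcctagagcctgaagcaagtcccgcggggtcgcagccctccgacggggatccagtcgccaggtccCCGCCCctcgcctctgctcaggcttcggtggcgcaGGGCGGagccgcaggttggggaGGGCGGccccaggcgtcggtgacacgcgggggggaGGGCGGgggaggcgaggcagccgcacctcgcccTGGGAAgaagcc

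The Jup promoter held 2 GC boxes and no TGGGAA, and the Dsp promoter 4 GC boxes and 1 TGGGAA. Neither held the AP-1 motif TGANTCA or the E-box CANNTG, also searched on both strands. Among 32851 promoters of the same length, GGGCGG occurred in 32.7%, TGGGAA in 21.6%, TGANTCA in 6.75% and CANNTG in 66.2%. The matches did not overlap each other, and they describe letters in these windows only.

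To see how strongly each part of the junction was expressed, levels were compared within libraries. Perp was the most abundant member in all 4 media, at 1019, 1294, 684 and 633 FPKM. Pkp2 was the least abundant, at 2.21, 0.634, 2.66 and 1.05 FPKM. The other 8 members ranged from 35.8 to 402 FPKM. The 10 members summed to 2816, 2681, 1933 and 1764 FPKM. Without Perp, the sums were 1797, 1387, 1249 and 1131 FPKM.

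**Figure D1:**
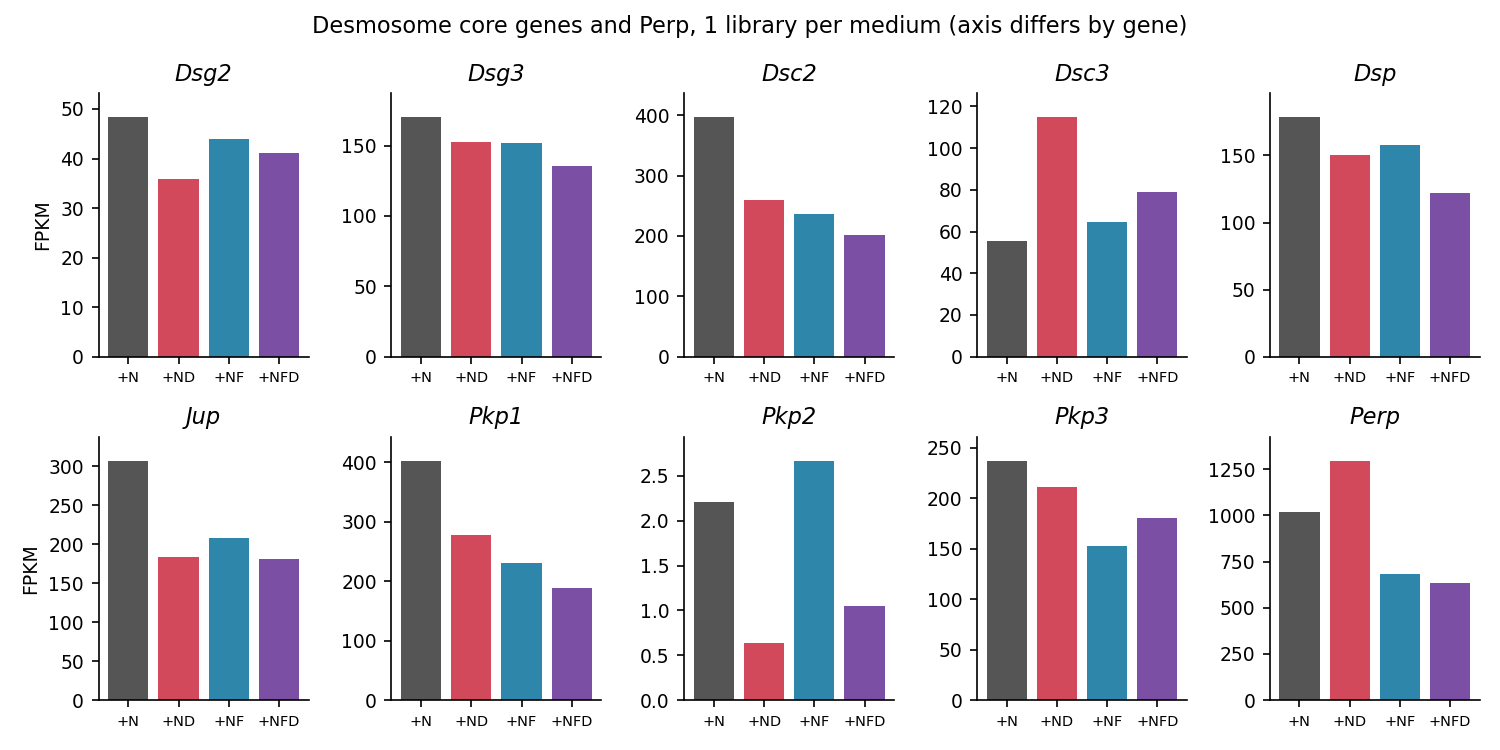
FPKM of the 10 members by medium, 1 library each. Perp is highest in every medium and Pkp2, at 0.634 to 2.66 FPKM, lowest.

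Among the cadherins, Dsc2 stood highest in every medium. Its levels were 396, 259, 237 and 201 FPKM, 1.97-fold from lowest to highest. Dsc3, its basal-weighted relative, went another way, with 55.6, 115, 64.8 and 78.7 FPKM. Dsc3 was thus lowest in the medium where Dsc2 was highest. Dsg3, the desmoglein targeted in pemphigus vulgaris, was even across media, at 170, 153, 151 and 135 FPKM, and so was Dsg2, at 48.3, 35.8, 44.0 and 41.2 FPKM. Their highest libraries exceeded their lowest 1.26-fold and 1.35-fold.

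In the plaque, Dsp reached 178, 150.5, 157 and 122 FPKM. Jup was at 307 FPKM in +N and between 182 and 208 FPKM in the other 3 media. Pkp1, the plakophilin of stratified epithelia, was at 402, 277, 231 and 189 FPKM, and Pkp3, which is found in most epithelia, at 237, 211, 153 and 181 FPKM. For Dsp, Jup, Pkp1 and Pkp3 alike, +N was the highest library. Pkp2 rested on about 177, 40, 223 and 89 fragments, and was lower in both media with DBZ than in both without.

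To ask what DBZ did to the members, its effect was fitted across the 4 libraries with FGF10 as the other term. None of the 10 members passed the limma test (Benjamini-Hochberg adjusted p under 0.05), where 3.8% of all 13748 genes tested were called, 1.71% higher and 2.09% lower. At an unadjusted p under 0.05 there were 2 of the 10 (Dsc3 and Pkp2), where 14.5% of all genes stood. The fit has 1 residual degree of freedom, so its spread holds both variation between cultures and any departure from additive effects.

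The largest positive DBZ effect among members was that of Dsc3, at 0.65 ± 0.24 (SE, log2 scale of FPKM + 1, limma adjusted p = 0.276). Pkp2 had an effect of -0.91 ± 0.27 (limma adjusted p = 0.161), the most negative at this pseudocount. For this low gene the effect was -1.46 with a pseudocount of 0.1 and -0.35 with 5, where Jup, Dsc2 and Pkp1 were more negative. Jup, Dsc2 and Pkp1 had effects of -0.46, -0.42 and -0.41, and Pkp3 and Perp effects of 0.04 and 0.12. The sign for Pkp3 turned when libraries were scaled to the upper quartile or centred on the median gene. The median DBZ effect was -0.28 over the members and 0.08 over all genes.

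The FGF10 effect was fitted in the same model. Again none of the 10 members passed (0.866% of all genes were called, 0.327% higher and 0.538% lower), and 3 of the 10, Dsc2, Perp and Pkp1, had an unadjusted p under 0.05, against 10.7% of all genes. Perp had the largest effect, -0.80 ± 0.20 (SE, limma adjusted p = 0.162, 95% interval -1.27 to -0.34). Pkp1 followed with -0.68 ± 0.20 (limma adjusted p = 0.247) and Dsc2 with -0.55 ± 0.20 (limma adjusted p = 0.392). Dsg2 had an effect of 0.03, which turned negative under both rescalings. The median FGF10 effect was -0.26 over the members and 0.09 over all genes.

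**Figure D2:**
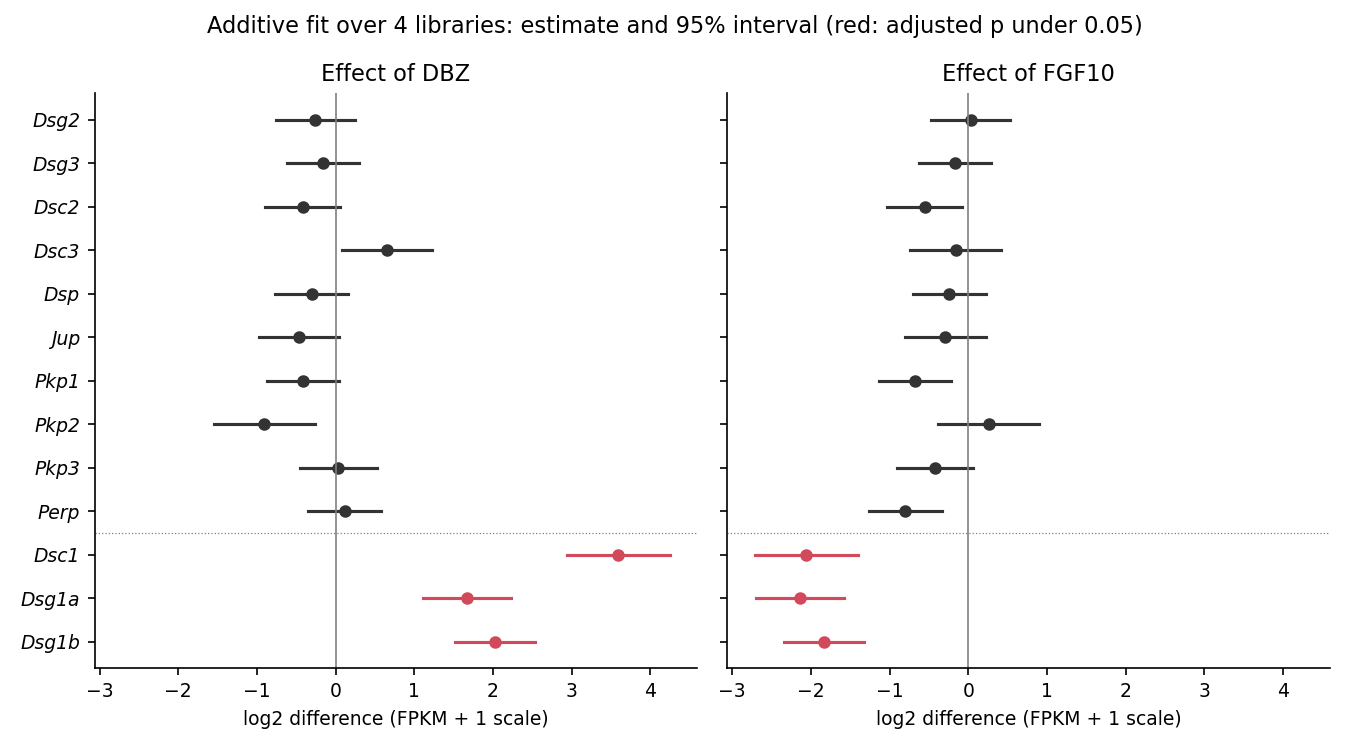
Effects of DBZ and FGF10 on each member and on the suprabasal cadherins (log2 scale of FPKM + 1) from the limma fit over 4 libraries, with bars for the 95% interval. Dsc1, Dsg1a and Dsg1b lie far from 0 in opposite directions for DBZ and FGF10, whereas no member passed the test.

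Single pairs of libraries, which carry no replicate check, were then set side by side. In +ND relative to +N, 8 of 10 members were lower by any amount (41.8% of all genes) and 2 higher (58.2%). Of these, 1 was at least 2-fold higher, Dsc3 with a log2 ratio of 1.03 (5.88% of all genes), and 0 were at least 2-fold lower (5.29%). In +NFD relative to +NF, 8 were lower (42.8%), 2 higher (57.2%) and none passed 2-fold (3.72% of all genes higher, 2.69% lower). Dsc3 had the highest log2 ratio of the members there too, at 0.28.

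In +NF relative to +N, 8 of 10 members were lower (34.3% of all genes), 2 higher (65.7%) and none passed 2-fold (2.76% of all genes higher, 2.44% lower). In +NFD relative to +ND, 8 were lower (41%) and 2 higher (59%). There, Perp passed 2-fold downward at -1.03 (3.11% of all genes) and 0 passed it upward (3.39%). In +NFD relative to +N, 9 of 10 were lower (30.9%) and Dsc3 was higher (69.1%). Pkp1 passed 2-fold downward at -1.09 (4.03%) and 0 passed it upward (5.85%). These pairs share libraries and are not independent. The 2-fold call of Dsc3 in +ND was lost with a pseudocount of 5 and under both rescalings. Pkp2 passed 2-fold downward with a pseudocount of 0.1 or none in +ND and +NFD relative to +N and in +NFD relative to +NF, and under both rescalings in +ND relative to +N.

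Each factor also has 2 pairs with no library in common. For DBZ, 7 of 10 members were lower in both pairs, against 23% of all genes and 22.4% of those with a mean FPKM of at least 40. For FGF10, 7 of 10 were lower in both, against 14.7% and 19.4%, with Jup at a log2 ratio of only -0.02 in the pair with DBZ. Only 1 member was higher in both pairs for each factor, Dsc3 for DBZ (38.3% of all genes) and Pkp2 for FGF10 (40.5%). Pkp2, at 0.634 FPKM in +ND and 1.05 FPKM in +NFD, passed the filter of 1 in that pair only through +NFD. In +ND relative to +N it passed only through +N (2.21 FPKM). The filter thus favoured the direction counted for Pkp2. With the filter at an FPKM of 5, which leaves Pkp2 out, 6 of 9 members were lower in both DBZ pairs and 7 of 9 in both FGF10 pairs.

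**Figure D3:**
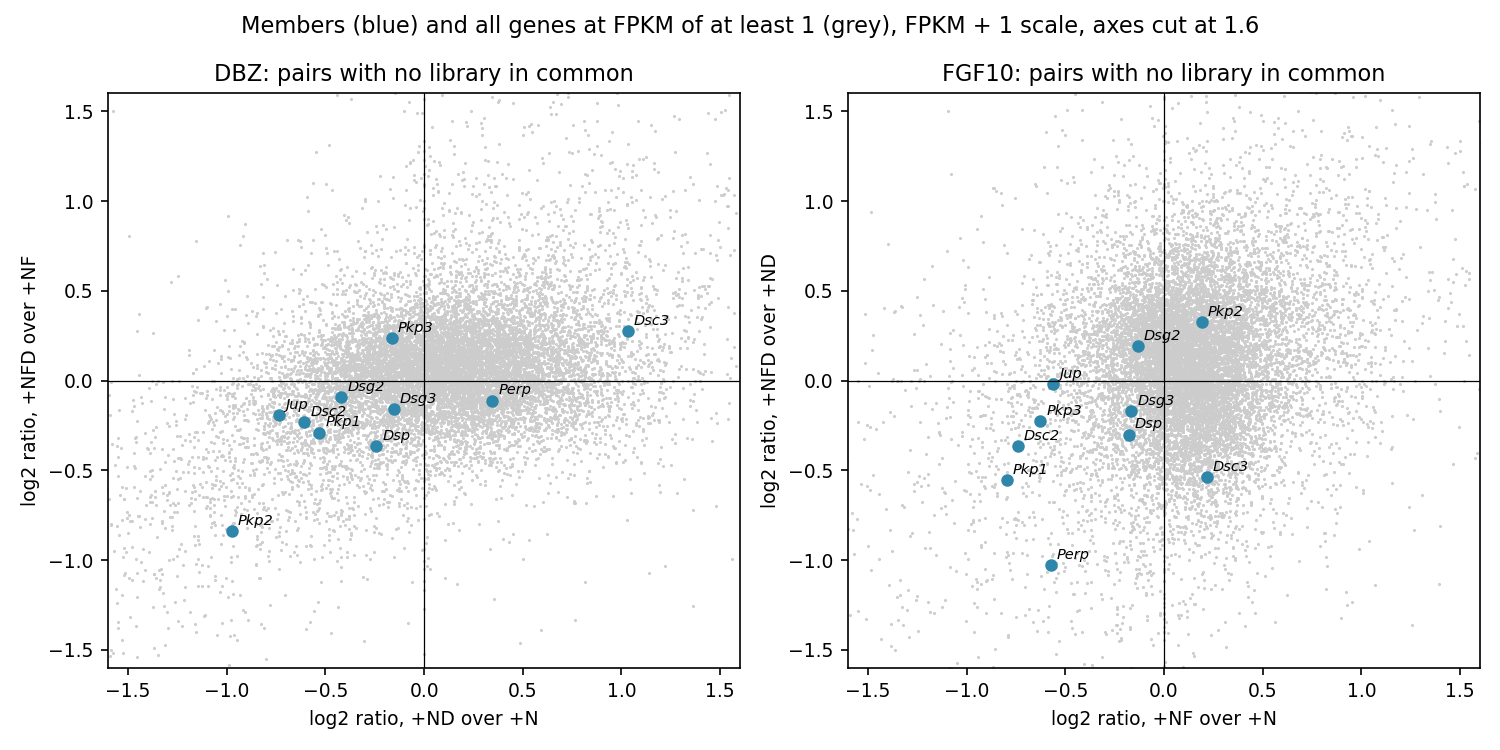
Log2 ratio of FPKM + 1 without the other factor against the ratio with it, for DBZ and for FGF10, with all genes that passed the filter as grey points and the members named. Most members lie below 0 on both axes, and Dsc3 lies above 0 on both axes for DBZ.

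The isoform make-up of each class was compared next, since a share within a library does not depend on scaling between libraries. Dsc2 made up 87.2%, 60.4%, 78.5% and 69.7% of desmocollin FPKM. Dsc3 made up 12.2%, 26.7%, 21.5% and 27.2%. The Dsc2 to Dsc3 ratio was therefore 7.13 in +N and 2.26 to 3.65 in the other media.

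Among the desmogleins, Dsg3 held 73.7%, 64.0%, 76.8% and 71.8%, lowest in +ND. With Dsg2 and Dsg3 alone in the sum its share was highest in +ND, at 81.0% against 76.7% to 77.9% elsewhere. Dsg2 held 20.9%, 15.0%, 22.3% and 21.8%, so its ratio to Dsg3 stayed between 0.235 and 0.304. Among the plakophilins, Pkp1 held 62.7%, 56.7%, 59.7% and 50.9% and Pkp3 most of the rest. Pkp2 held at most 0.689%.

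**Figure D4:**
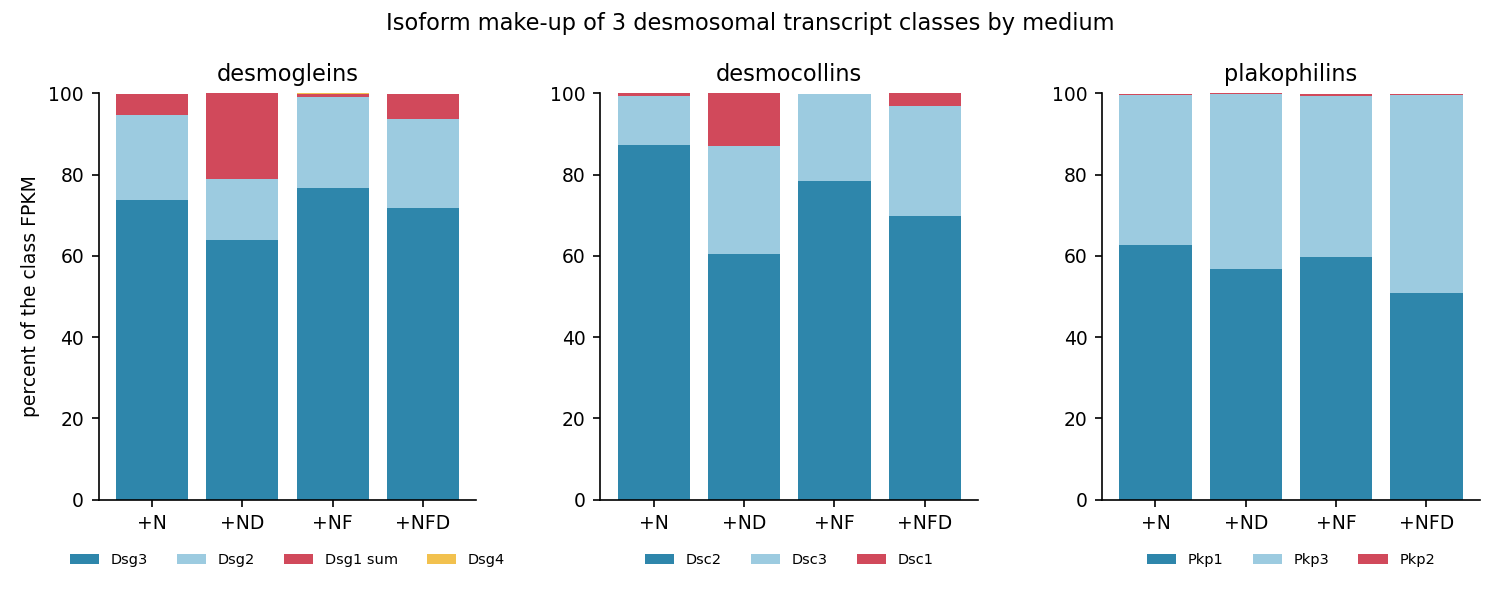
Share of each isoform in the summed FPKM of desmogleins, desmocollins and plakophilins in each medium. The suprabasal Dsg1 and Dsc1 take 21.0% and 12.9% of their classes in +ND and under 1% in +NF.

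The cadherins of the suprabasal layers, Dsg1 and Dsc1, are set beside the members here. Dsc1 stood at 2.39, 55.3, 0.119 and 8.79 FPKM, the +NF value resting on about 14 fragments. Dsg1b was at 7.54, 31.2, 1.22 and 8.81 FPKM and Dsg1a at 4.55, 18.8, 0.424 and 3.01 FPKM. All 3 were highest in +ND and lowest in +NF.

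Dsc1 rose with DBZ by 3.59 ± 0.28 (SE, log2 scale, limma adjusted p = 0.000593) and fell by 2.06 with FGF10 (limma adjusted p = 0.0296). Dsg1a rose by 1.67 with DBZ (limma adjusted p = 0.0109) and Dsg1b by 2.03 (limma adjusted p = 0.00293), and both fell with FGF10 (limma adjusted p = 0.0134 and 0.0170). Of their 50-base sequences, 35.0% (Dsg1a) and 48.9% (Dsg1b) recur in other genes, so the 2 are uncertain one by one. Their sum with Dsg1c was 12.2, 50.1, 1.70 and 11.9 FPKM. The sum rose with DBZ (limma adjusted p = 0.00240) and fell by 2.14 with FGF10 (limma adjusted p = 0.0111). With pseudocounts of 0.1 and 5 the Dsc1 effect was 4.91 and 2.23 for DBZ and -3.07 and -1.33 for FGF10. The FGF10 call of Dsc1 was lost at 5 and without the eBayes trend, both calls of Dsg1a were lost at 5, and all calls of the 3 genes were lost without the low-value filter, where limma called no gene for either factor.

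Dsg1c was at 0.0547 to 0.107 FPKM and Dsg4, a hair desmoglein, was listed at 0 in +ND and at 0.126 FPKM or less elsewhere. Both rested on 12 fragments or fewer in each library. The 5 suprabasal cadherins together reached 14.7, 105, 1.87 and 20.7 FPKM, against 670, 563, 497 and 457 FPKM for Dsg2, Dsg3, Dsc2 and Dsc3. The Dsc1 to Dsc3 ratio ranged from 0.00184 in +NF to 0.482 in +ND, and the Dsg1 to Dsg3 ratio from 0.0112 to 0.328 in the same media.

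**Figure D5:**
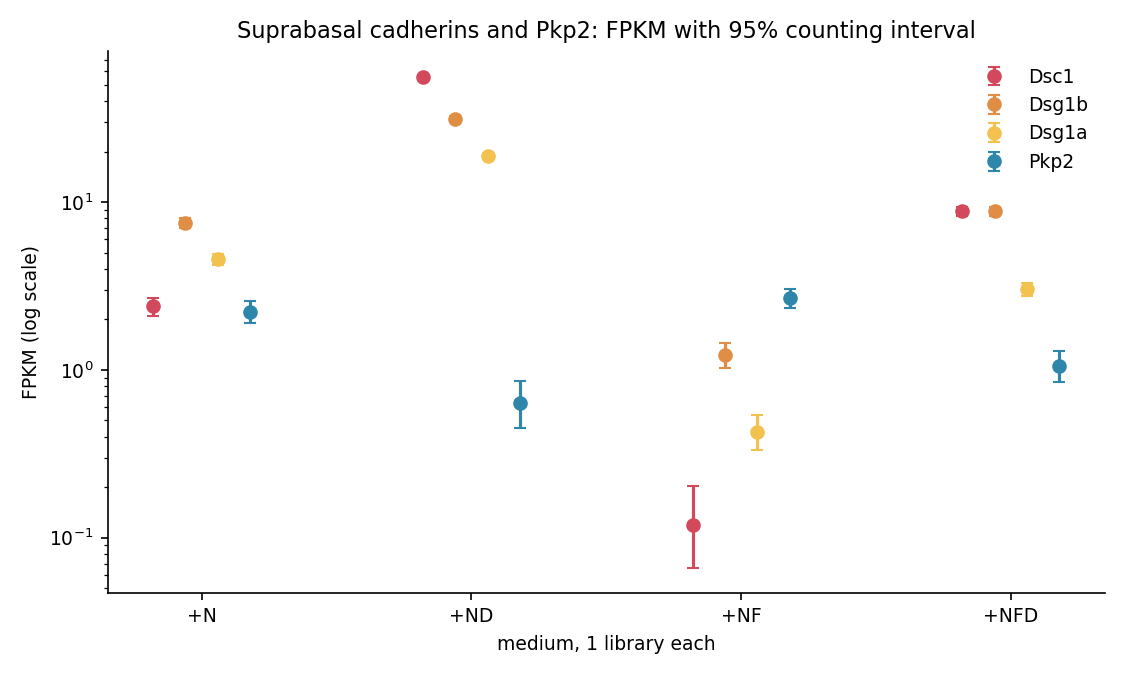
FPKM of Dsc1, Dsg1a, Dsg1b and Pkp2 by medium on a log axis, with bars for the 95% counting interval of 1 library each. The 3 cadherins are highest in +ND and lowest in +NF, whereas Pkp2 is lowest in +ND and highest in +NF.

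Other genes of the junction and of the epithelial layers were counted from lists. Of 5 further desmosome-linked genes, only Cdsn, the corneodesmosome protein, passed the test. Cdsn rose with DBZ by 4.75 (limma adjusted p = 5.89e-05, 1.71% of all genes called higher). With FGF10 it fell by 1.53 (limma adjusted p = 0.0307, 0.538% of all genes called lower). It was at 9.14, 247, 2.20 and 93.4 FPKM. None of the 6 adherens junction genes tested was called for DBZ (3.8% of all genes) or FGF10 (0.866%), a count near the background. In both DBZ pairs 5 of the 6 were lower and 1 higher (23% and 38.3% of all genes). In both FGF10 pairs 1 was lower and 1 higher (14.7% and 40.5%). Of 7 suprabasal keratins, Krt16 rose with DBZ (limma, adjusted p under 0.05, 1.71% of all genes called higher) and the other 6 did not pass. The median DBZ effect over the list was -0.34, with 2 higher and 2 lower in both pairs (38.3% and 23% of all genes). Krt1, counted among the higher, was at 0.300, 52.2, 0.0123 and 1.07 FPKM. It reached an FPKM of 1 only with DBZ, so the filter itself favoured that direction. Krt10, Krt16 and Krt6b fell with FGF10 (limma, adjusted p under 0.05; 0.538% of all genes). The median FGF10 effect over the list was -2.03, and 7 of 7 were lower in both pairs (14.7% of all genes). Of these, Krt1 was below an FPKM of 1 in both +N and +NF (0.300 and 0.0123 FPKM). The background holds only genes that reached it in both pairs, so Krt1 has no counterpart there. None of the 4 basal keratins and none of 20 p53 target genes was called, where 3.8% (DBZ) and 0.866% (FGF10) of all genes were, so these counts of 0 are near the background.

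A further list held 9 genes, p63 and other epithelial regulators, and was not split by layer. Of these 9, Klf4 and Ovol1 rose and Zfp750 fell with DBZ (limma, adjusted p under 0.05), against 1.71% of all genes higher and 2.09% lower. None was called for FGF10, where 0.866% of all genes were, so that count is near the background. In both DBZ pairs 7 of the 9 were higher and 1 lower (38.3% and 23% of all genes). In both FGF10 pairs 0 were higher and 6 lower (40.5% and 14.7%). Trp63, which encodes p63, was at 88.5, 166, 100.4 and 124 FPKM. Of 7 simple epithelium markers, 6 fell with DBZ, namely Cldn4, Epcam, Krt7, Krt8, Krt18 and Krt19 (2.09% of all genes), and Krt8 and Krt18 rose with FGF10 (0.327% of all genes; limma, adjusted p under 0.05). These markers summed to 564, 166, 735 and 271 FPKM, the same order of media as Pkp2. Singly, Cldn4 and Krt19 were highest in +N (326 and 10.6 FPKM), and the other markers of the list in +NF, as Pkp2 was. The part of the list in the Pkp2 values was not tested.

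Among the members themselves, the most alike patterns over the 4 libraries were those of Dsc2 and Pkp1, which differed by a root mean square of 0.07 on the log2 scale after centring each gene. The least alike were Dsc3 and Pkp2, at 0.84. Over all genes reaching 10 FPKM, the nearest to Perp were Hif1a, Sat1 and Ell2, and the nearest to Pkp1 were Dmkn, Hsd17b7 and Anxa1. Those nearest to Dsc3 were Wdr12, Lrpprc and Tspan3, and those nearest to Pkp2 were Slc12a7, Gm6055 and Cd63. Of 8289 genes searched, 669 lay within 0.2 of Dsc3, 74 of Pkp1 and 72 of Perp, and of 8290 searched 133 lay within 0.2 of Pkp2.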

How the data were processed

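RNA-seq was carried out on 1 library per medium. Per the labels and methods, the authors trimmed reads with Trim Galore 0.6.5 after FastQC 0.11.9, aligned them to GRCm38 with TopHat2 2.1.1 and estimated the deposited FPKM values with Cufflinks. The annotation release and strand setting were not given in the sources used here. The study's methods text gives the DBZ unit as mM where the labels give µM. Entries of 1 symbol were summed.

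An additive limma 3.58.1 model (R 4.3.3) of FGF10 and DBZ was fitted to log2(FPKM + 1) over the 13748 genes that reached an FPKM of 1 in any library, two-sided, with trended eBayes and Benjamini-Hochberg adjustment at 0.05. The fit was tested on simulated data with additive effects only, which leave out any departure from additive effects. Pairs of libraries were compared as log2 ratios of FPKM + 1, called at 2-fold, with no test. Fold changes on this scale understate those of low genes. Depth was estimated from the smallest FPKM steps of genes with 1 transcript. All members and suprabasal cadherins are named, and from other lists at most the 3 most abundant genes and those past the threshold. Thy1, Ptprc and Krt1 are named besides these, because the filter affected how they were counted. A further tissue check is not reported here. The members and lists were chosen with earlier results of these data known. Pseudocounts of 0.1 and 5, other filters, scalings and eBayes settings were tried.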

Additional observations from a re-analysis of the deposited data

Results flagged for a closer look

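For 4 members the ratio for 1 factor had opposite signs without and with the other factor. The differences below are log2 ratios with the other factor minus without it, from 1 library per medium, and none was tested. The Pkp3 ratio for DBZ was -0.17 without FGF10 and 0.24 with it, a difference of 0.40. The Perp ratio for DBZ was 0.34 without FGF10 and -0.11 with it, a difference of -0.46. The Dsg2 ratio for FGF10 was -0.13 without DBZ and 0.19 with it, a difference of 0.33. The Dsc3 ratio for FGF10 was 0.22 without DBZ and -0.54 with it, a difference of -0.75.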

How the results depend on the processing

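No paired analysis was possible because each medium had 1 library and so no replicate numbers to block on, and the additive fit already averages the 2 pairs of each factor that share no library. Leaving out a library leaves the additive fit no residual degrees of freedom, so it was not run. No member tested was called for either factor under any setting of limma tried, and Pkp2 was not tested with the filter at 5. Upper-quartile scaling and median centring turned the DBZ effect on Pkp3 to -0.043 and -0.039, and the FGF10 effect on Dsg2 to -0.062 and -0.073. The median gene itself shifted by 0.10 in +ND relative to +N, 0.12 in +NF relative to +N and 0.18 in +NFD relative to +N.

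At 2-fold, the count of members higher in +ND relative to +N (1, Dsc3) became 0 with a pseudocount of 5 and under both rescalings. The count lower there (0) became 1, Pkp2, with a pseudocount of 0.1, with none and under both rescalings. In +NFD relative to +NF it became 1, Pkp2, with a pseudocount of 0.1 or none. In +NFD relative to +N the count lower (1) became 2 with a pseudocount of 0.1 or none (Pkp1 and Pkp2) and under both rescalings (Dsc2 and Pkp1). With Dsg2 and Dsg3 alone in the sum, the Dsg3 share came to 77.9%, 81.0%, 77.5% and 76.7% for +N, +ND, +NF and +NFD, which turns +ND from lowest to highest.

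Without the filter, limma called 0 of 22998 genes for either factor (2319 for DBZ and 1696 for FGF10 at an unadjusted p under 0.05). A pseudocount of 5 lost the calls of Dsg1a for DBZ (limma adjusted p = 0.0562), Dsc1 for FGF10 (0.201) and Dsg1a for FGF10 (0.0706), and eBayes without trend lost Dsc1 for FGF10 (0.0551). All genes called higher and lower for FGF10 numbered 45 and 74, against 85 and 116 with a pseudocount of 0.1, 25 and 43 with 5, 75 and 124 with a filter at 5, 24 and 51 with upper-quartile scaling, 69 and 147 with centring, 26 and 32 without trend and 109 and 118 with robust eBayes. The causes were not tested. The Dsg1 sum and the background of genes at 40 FPKM were chosen after seeing the data.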
